A study of Mus musculus with 12 samples.

Results

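Leptin (Lep), adipsin (Cfd), adiponectin (Adipoq), resistin (Retn), chemerin (Rarres2) and Nampt, which also circulates as visfatin, are proteins that fat tissue secretes. Lepr encodes the leptin receptor, and Adipor1 and Adipor2 encode the adiponectin receptors. These 9 genes, of 27825 in the deposited expression table, were chosen by symbol. They were selected on earlier results of the same libraries: the diet changes of Lep, Cfd and Adipoq were known when the genes were picked, so for those 3 the diet changes are described here with no test. All 9 passed the filter used for testing, a mean of at least 10 normalized counts over the 12 libraries, and their lowest group means were 37.7 for Lep and 142 for Lepr.

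The libraries are bulk RNA-seq of cells sorted on yellow fluorescent protein from mouse mesentery, the membrane that holds the gut and its vessels and fat, or from epididymal fat, a visceral fat pad. All animals were male ROSA26-eYFP+/+ Cdh5-CreERT2+ mice, in which tamoxifen switches on the reporter in cells that express the endothelial gene Cdh5. Every mouse ate tamoxifen diet from 6 weeks of age for 2 weeks, and from 8 weeks received normal chow (5.8% fat) or a high fat diet (60% fat) for 12 to 13 weeks. The 4 groups (mesentery on chow, mesentery on high fat, epididymal on chow, epididymal on high fat) held 3 libraries each, lettered A, B and C, and each library pooled tissue from 6 mice. All groups shared the reporter, the Cre driver, the tamoxifen, digestion in the presence of the transcription blocker actinomycin D, and lysis of red cells. The submitters speak of 2 independent replicates and list 3 libraries a group, so p-values measure the spread between these libraries, which may be partly technical. Numbers in the sample descriptions, shared between tissues, were 50, 51 and 87 for chow A, B and C and 88, 52 and 53 for high fat A, B and C. What separates the numbers 50 to 53 from 87 and 88 is not stated, and values from each range are given beside the results. Values for 87 and 88 rest on a single library a group, so they carry no estimate of spread.

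White adipocytes are the main source of leptin, adiponectin and, in mice, resistin and adipsin. Leptin reports fat stores to the brain through the signalling form of its receptor and the kinase JAK2, while adiponectin acts on muscle, liver and vessels through AdipoR1 and AdipoR2 and is captured on endothelium by T-cadherin (Cdh13). Adipsin is complement factor D, the serine protease that cleaves factor B and so starts the alternative complement pathway. In obesity circulating leptin is known to rise and adiponectin to fall.

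The starting material bears on the secreted members, since endothelial cells are not the usual source of leptin, adiponectin, resistin or adipsin. The 12 endothelial markers listed (Cdh5, Pecam1, Kdr and others) were read in every library, with summed levels of 116421 to 166710 normalized counts in mesentery on chow, 111075 to 129538 in mesentery on high fat, 84569 to 102112 in epididymal fat on chow and 47284 to 88312 in epididymal fat on high fat. The 18 adipocyte markers listed, with the 9 genes described here left out, were also read: 22093 to 29762, 26010 to 50654, 156373 to 198064 and 24728 to 85804 in the same order. Of the 18, Pck1 and Adrb3 were at 0 in mesentery on chow C, and none was at 0 in every library of a group. Car3 alone gave 98532, 126573 and 89081 of the sums in epididymal fat on chow A, B and C (162173, 198064 and 156373). Macrophage markers (12 genes) summed to 1529 to 7656, 4175 to 24047, 6256 to 86944 and 139197 to 350146. Lyz2 alone gave 68477 of the 86944 in epididymal fat on chow B and 249273 of the 350146 in epididymal fat on high fat C. Pancreatic acinar markers (8 genes) summed to 25435 to 166035, 52484 to 99652, 186 to 269 and 392 to 557. Red blood cell markers (4 genes) summed to 320 to 411, 177 to 362, 35090 to 44020 and 31944 to 36413. The endothelial markers did not share the direction of their sums. By limma on chow, 6 of 12 were lower in epididymal fat and 2 higher (Cldn5 and Vwf), against 5.47% and 7.32% of all genes. On high fat 7 were lower and 1 higher (Cldn5), against 3.43% and 4.91%. Cdh5 itself had means of 3842 in mesentery and 3804 in epididymal fat on chow. Library totals ran from 8348897 to 25397963 assigned reads. In bulk samples, fewer cells of a type and less RNA per cell cannot be told apart.

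The promoters of the 4 members with the largest diet changes are shown to compare their proximal sequence. Each is the 250 bases before the transcription start in RefSeq (GRCm38.p6, plus strand), at chr6:29059971-29060220 for Lep, chr10:79890603-79890852 for Cfd, chr16:23146286-23146535 for Adipoq and chr8:3655520-3655769 for Retn. Capitals mark matches, on either strand, to the motifs searched: TTGCGCAA (a C/EBP-type palindrome), TTGCNNAA (its loose core, which includes the palindrome), AGGTCA (a nuclear receptor core), TATAA (the core of a TATA box), CCAAT (the box of that name) and CACGTG (an E-box).
Lep: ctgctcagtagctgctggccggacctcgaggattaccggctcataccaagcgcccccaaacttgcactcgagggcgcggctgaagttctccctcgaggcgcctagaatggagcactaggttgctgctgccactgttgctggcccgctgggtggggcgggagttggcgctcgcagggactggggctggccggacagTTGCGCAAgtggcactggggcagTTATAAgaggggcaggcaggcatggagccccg
Cfd: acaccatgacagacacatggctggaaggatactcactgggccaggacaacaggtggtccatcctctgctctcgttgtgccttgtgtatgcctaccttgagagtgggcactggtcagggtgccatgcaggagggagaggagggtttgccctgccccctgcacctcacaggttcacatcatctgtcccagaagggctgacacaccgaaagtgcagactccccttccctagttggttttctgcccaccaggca
Adipoq: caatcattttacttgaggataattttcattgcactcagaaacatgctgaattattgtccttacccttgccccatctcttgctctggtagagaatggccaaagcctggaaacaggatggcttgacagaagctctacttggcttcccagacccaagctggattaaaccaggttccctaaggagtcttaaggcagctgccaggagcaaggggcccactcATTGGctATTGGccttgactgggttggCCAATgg
Retn: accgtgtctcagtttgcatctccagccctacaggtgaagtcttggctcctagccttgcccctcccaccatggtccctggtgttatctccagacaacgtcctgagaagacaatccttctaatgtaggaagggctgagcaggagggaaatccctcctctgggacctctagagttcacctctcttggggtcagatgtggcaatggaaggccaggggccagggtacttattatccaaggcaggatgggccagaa

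The Lep promoter held TTGCGCAA 55 bases before the start and overlapping TATAA matches on both strands at 31 and 32 bases before it. TTGCGCAA occurs in 0.164% of the 32841 promoters of this length in the table and TATAA in 22.8%. Adipoq held 3 CCAAT matches, at 34, 27 and 7 bases before the start, a motif found in 33.9% of promoters. No motif searched matched in the Cfd or Retn windows, which says only that these letters are absent there; TTGCNNAA occurs in 9.57% of promoters, AGGTCA in 14% and CACGTG in 6.02%. Promoter entries matched 8 of the 9 members by symbol. A match is a description of letters and not a bound site.

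**Figure D1:**
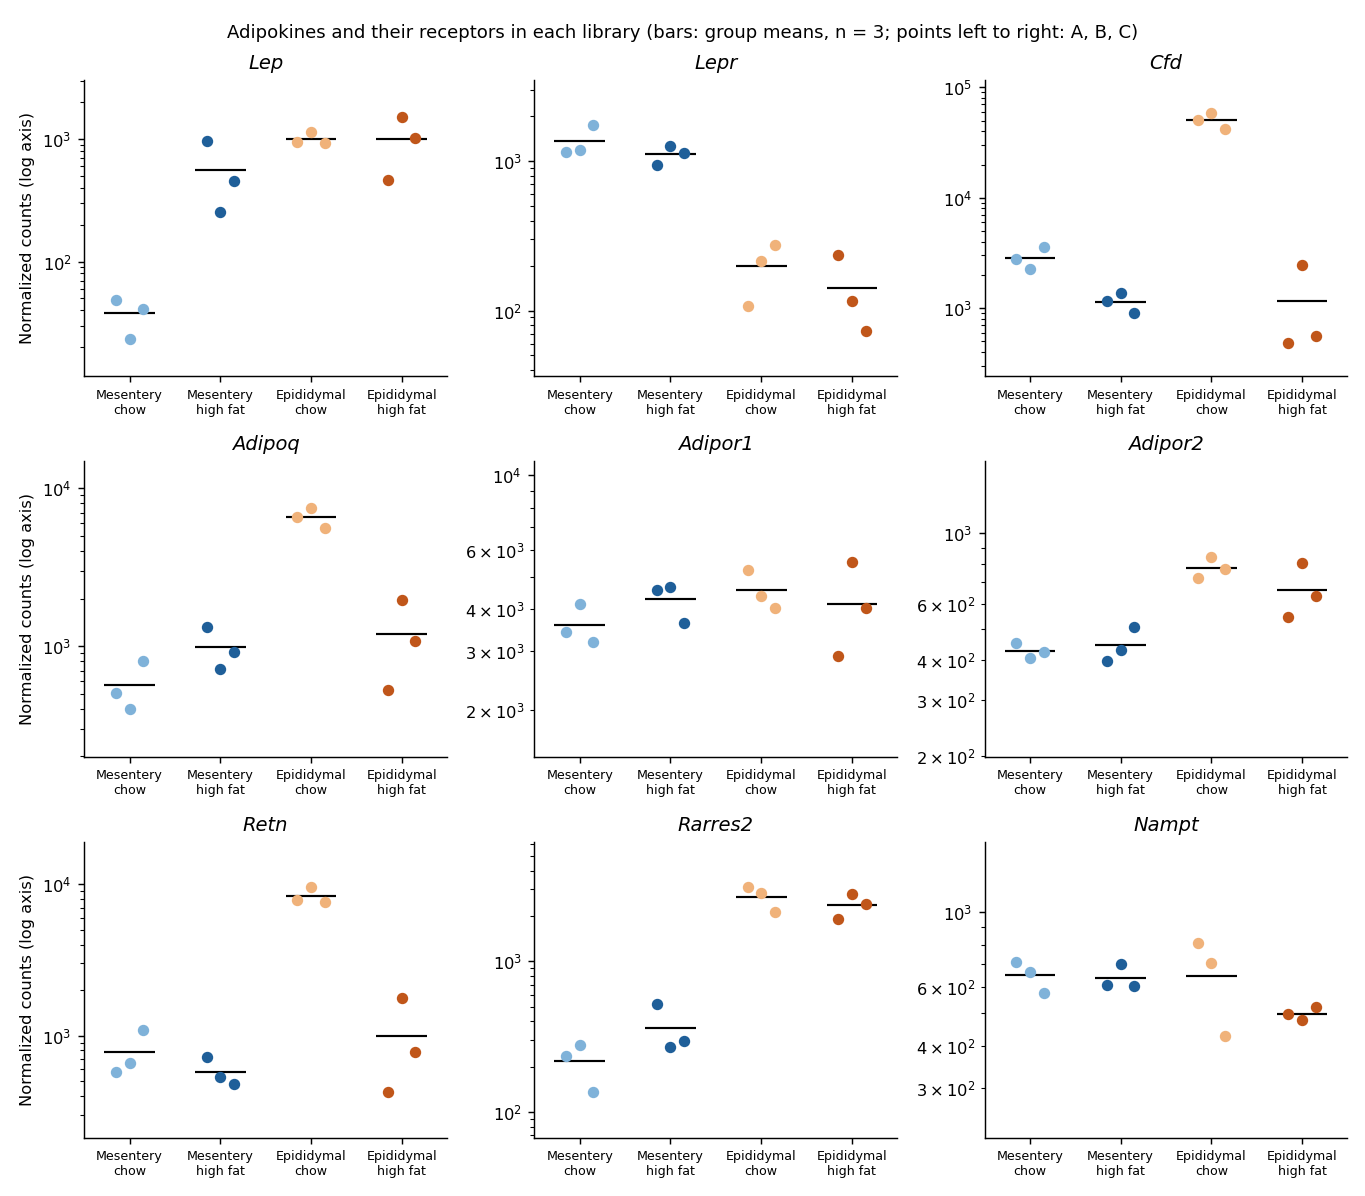
Normalized counts (log axes that differ between panels) of the 9 genes in each of the 12 libraries, with libraries A, B and C from left to right in each group and bars at group means (n = 3). Lep is low in the 3 mesentery libraries on chow alone, Cfd, Adipoq and Retn are high in the 3 epididymal libraries on chow, and Rarres2 and Lepr separate the tissues on both diets.

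Leptin had the largest diet difference of the 9 members in mesentery, and was higher there on the high fat diet. Lep (ENSMUSG00000059201) read 48.96, 23.3 and 40.83 normalized counts in mesentery on chow A, B and C and 973.6, 256.4 and 456.5 on the high fat diet. Normalized counts are reads divided by a library's size factor, and 3 reads correspond to 2.123 to 4.224 of them. All high fat libraries lay above all chow libraries, and the high fat values spread widely: the means were 37.7 ± 13.1 and 562 ± 370 (SD, n = 3), a 14.91-fold ratio. On the log2(normalized count + 1) scale used for every change below, the difference was 3.71 (SE 0.48). It was 3.30 in the libraries numbered 50 to 53 and 4.54 in those numbered 87 and 88, and leaving out a library in turn gave 3.21 to 4.17.

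In epididymal fat Lep did not follow the same course. Its values were 946.9, 1136 and 924.2 on chow and 466.5, 1531 and 1029 on high fat, with means of 1002.5 ± 116.5 and 1009 ± 533 (SD, n = 3). The groups overlapped and the log2 difference was -0.145 (SE 0.48), 0.275 in the libraries numbered 50 to 53 and -0.985 in the others. The difference between the diet changes (epididymal minus mesentery) was -3.86 (SE 0.68), again a description. Mesentery on chow was thus the low group, and the other groups came within reach of each other: high fat mesentery A read more than epididymal chow A and C, while its B and C lay below every epididymal library.

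Adipsin was highest by far in epididymal fat on chow. Cfd (ENSMUSG00000061780) read 50724, 58630 and 41784 normalized counts there and 485.7, 2440 and 556.3 on the high fat diet. The groups lay far apart, with means of 50379 ± 8428 and 1161 ± 1109 (SD, n = 3), 43.4-fold lower on high fat, a log2 difference of -5.84 (SE 0.46). Epididymal high fat B was the highest of its group; without it the difference was -6.58, and it was -5.55 in the libraries numbered 50 to 53 and -6.42 in those numbered 87 and 88. In mesentery Cfd read 2775, 2256 and 3556 on chow and 1158, 1365 and 910 on high fat. Here too the groups did not overlap, at a smaller ratio of 2.501 (means 2862.5 ± 654.5 and 1144 ± 228) and a log2 difference of -1.32 (SE 0.46; -1.17 and -1.62 within the number ranges). The difference between the changes was -4.52 (SE 0.65).

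Adiponectin was lower on the high fat diet in every epididymal library and not in mesentery. Adipoq (ENSMUSG00000022878) read 6581, 7465 and 5585 on chow and 526.1, 1951 and 1081 on high fat in epididymal fat, means of 6544 ± 940 and 1186 ± 718 (SD, n = 3). The groups did not overlap, and the log2 difference was -2.65 (SE 0.40; -2.27 in the libraries numbered 50 to 53, -3.41 in the others). In mesentery it read 502.2, 397.8 and 808.1 on chow and 1314, 720.7 and 912 on high fat. Those groups overlapped, since chow C exceeded high fat B, and the log2 difference was 0.805 (SE 0.40). The difference between the changes was -3.45 (SE 0.56).

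Of the secreted members whose diet changes could be tested, resistin alone passed. Retn (ENSMUSG00000012705), a cysteine-rich hormone of mouse adipocytes, read 7868, 9584 and 7657 in epididymal fat on chow and 423.8, 1770 and 782.1 on high fat. Every chow library lay above every high fat library, with means of 8370 ± 1057 and 992 ± 697 (SD, n = 3), an 8.438-fold ratio. The log2 difference was -3.31 (SE 0.40, limma adjusted p = 0.00354), -2.88 in the libraries numbered 50 to 53 and -4.17 in those numbered 87 and 88. It passed under 23 of 24 other settings, and the adjusted p was 0.0659 when the spread was shrunk without a trend on level.

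In mesentery Retn read 578.5, 664.8 and 1084 on chow and 724.8, 535 and 479.2 on high fat. The values overlapped and the log2 difference was -0.39 (SE 0.40, limma adjusted p = 0.953). The difference between the tissues' diet changes was -2.92 (SE 0.57, limma adjusted p = 0.185) and did not pass. It did pass without epididymal high fat B (-3.46, adjusted p = 0.0103) and in DESeq2 on the recovered reads, so this call rests on the setting.

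Chemerin and Nampt did not pass a diet test. Rarres2 (ENSMUSG00000009281), an attractant for immune cells that also acts on fat cells, read 236.8, 278.7 and 135.2 in mesentery on chow and 518.1, 270.3 and 294.4 on high fat. Those libraries overlapped, and the log2 difference was 0.73 (SE 0.30, limma adjusted p = 0.727), 0.13 in the libraries numbered 50 to 53 and 1.93 in the others. In epididymal fat it read 3115, 2836 and 2119 on chow and 1906, 2794 and 2392 on high fat, also overlapping (-0.185, SE 0.30, adjusted p = 1). Nampt (ENSMUSG00000020572), the rate-limiting enzyme of NAD salvage in the cell, had group means of 650 ± 68.5, 636 ± 56.3, 647 ± 198 and 499 ± 21.8 (SD, n = 3) from mesentery on chow and high fat to epididymal fat on chow and high fat. Its diet differences were -0.03 and -0.32 (SE 0.22; adjusted p = 0.995 and 1), the former 0.11 with columns rescaled to the same total.

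The receptors did not pass a diet test either. Lepr (ENSMUSG00000057722) read 1149, 1193 and 1763 in mesentery on chow and 949.3, 1265 and 1145 on high fat, and 107.3, 213.7 and 276.8 against 237.2, 115.6 and 72.9 in epididymal fat. Diet groups overlapped in both tissues, with log2 differences of -0.27 and -0.55 (SE 0.40, limma adjusted p = 0.971 and 1). Adipor1 (ENSMUSG00000026457) ranged from 2905 to 5532 over all 12 libraries, with diet differences of 0.26 in mesentery and -0.17 in epididymal fat (SE 0.23; adjusted p = 0.951 and 1). Adipor2 (ENSMUSG00000030168) differed by 0.05 and -0.25 (SE 0.18; adjusted p = 0.991 and 1). A p that misses the threshold does not show that a receptor's level was the same on both diets.

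Of the 6 members tested for diet, none passed in mesentery by limma, where 0.0135% of the 22238 genes tested passed at an adjusted p under 0.05. By unadjusted p under 0.05, Rarres2 alone of the 6 would pass there, and edgeR and DESeq2 on the recovered reads called 0 of the 6. In epididymal fat 1 of 6 (Retn) passed, against 0.549% of all genes. For the interaction 0 of 6 passed by limma and edgeR, 1 by DESeq2 and 1 by unadjusted p (Retn in both), against 0.0045% of all genes. Groups did not overlap between diets in mesentery for 9.61% of all genes, and for Lep and Cfd among the 9 members. In epididymal fat 13.5% of all genes did not overlap, and Cfd, Adipoq and Retn were those among the members. The members were picked with Lep, Cfd and Adipoq known, so nothing is read from these counts.

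**Figure D2:**
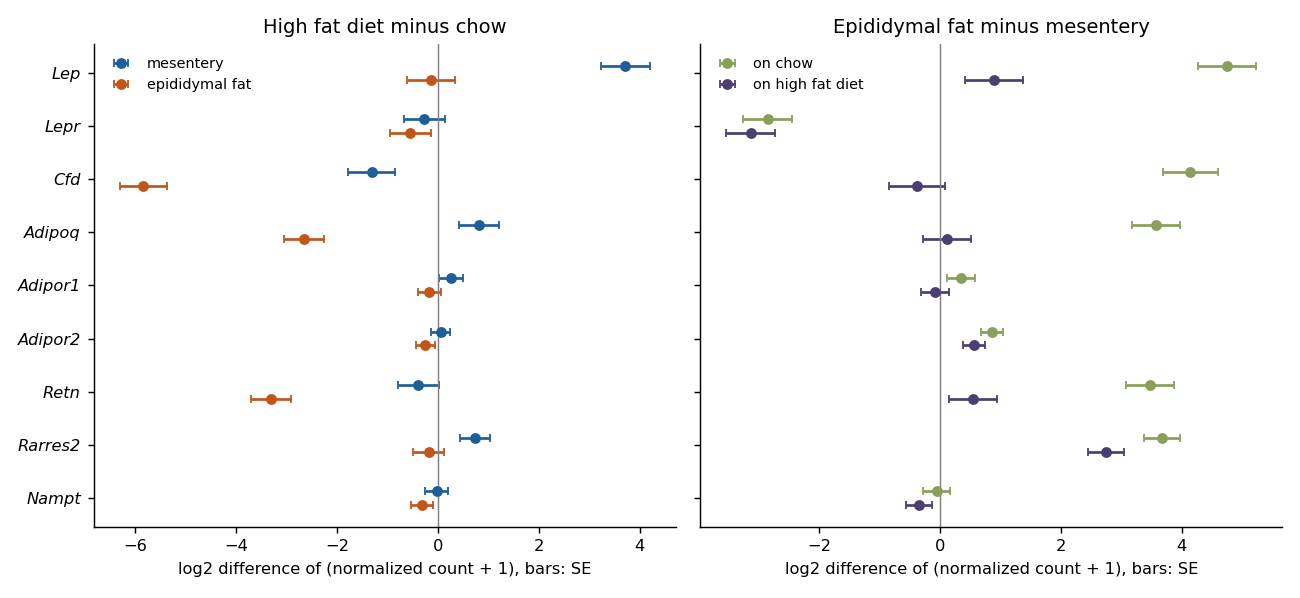
Log2 differences of (normalized count + 1) with SE bars for the 9 genes, high fat minus chow in each tissue (left) and epididymal fat minus mesentery on each diet (right). Cfd (-5.84), Retn (-3.31) and Adipoq (-2.65) stand below 0 for diet in epididymal fat, Lep (3.71) above 0 in mesentery, and Lepr lies farthest below 0 between tissues on both diets (-2.85 and -3.13).

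Between the tissues on chow, 7 of the 9 members differed, 6 of them higher in epididymal fat: Lep, Cfd, Adipoq, Retn, Rarres2 and Adipor2. Of all genes tested 12.8% passed, 7.32% higher and 5.47% lower in epididymal fat; 57.2% of these calls were higher there, and 67.3% with the columns rescaled to the same total. Of the secreted members 5 differed by more than any receptor: Lep by 4.75 (SE 0.48, limma adjusted p = 3.7e-05), a 26.59-fold ratio of means, Cfd by 4.15 (17.6-fold, adjusted p = 8.23e-05), Rarres2 by 3.67 (12.4-fold, adjusted p = 7.63e-06), Adipoq by 3.57 (11.49-fold, adjusted p = 8.32e-05) and Retn by 3.48 (10.79-fold, adjusted p = 0.000107). For each of these 5, every epididymal library on chow lay above every mesentery library on chow. All 7 passed in each of the 24 other settings tried. Lep, Cfd and Adipoq were picked on diet changes measured in these same libraries. Their tissue p-values, on either diet, are therefore no independent support, and nothing is read from the count of 7.

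The receptors split between the tissues. Adipor2 read 725.2, 841.9 and 771 in epididymal fat on chow and 450.9, 406.8 and 425.2 in mesentery, a log2 difference of 0.86 (SE 0.18, limma adjusted p = 0.00783) with no overlap. Lepr went the opposite way, 6.866-fold higher in mesentery (-2.85, SE 0.40, adjusted p = 0.000516), and each mesentery library exceeded each epididymal one. Adipor1 (0.35, adjusted p = 0.395) and Nampt (-0.05, adjusted p = 0.914; 0.04 with columns rescaled) did not pass. Within the number ranges Lepr differed by -2.94 and -2.67, and Lep by 4.90 and 4.47.

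On the high fat diet 2 of the 9 members passed between tissues, against 8.34% of all genes (4.91% higher and 3.43% lower in epididymal fat; 58.9% of calls higher, and 35.4% after rescaling). Rarres2 was higher in epididymal fat by 2.75 (SE 0.30, limma adjusted p = 0.000103), a 6.549-fold ratio. Lepr was 7.892-fold higher in mesentery (-3.13, SE 0.40, adjusted p = 0.000374), -3.70 and -2.00 within the number ranges. Both had non-overlapping libraries, and both passed in all 24 other settings.

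For Lep, Retn, Adipoq and Cfd the tissues were closer together on high fat by their values; the change for Retn was tested above and did not pass, and for the other 3 it is a description. Nampt differed by -0.35 on high fat (adjusted p = 0.432), without overlap, against -0.05 on chow. Lep differed by 0.895 (adjusted p = 0.325), Retn by 0.55 (adjusted p = 0.52), Adipoq by 0.12 (adjusted p = 0.934; -0.07 with columns rescaled) and Cfd by -0.37 (adjusted p = 0.771). Within the number ranges these differences changed sign: in the libraries numbered 50 to 53 they were 1.87, 1.215, 0.84 and 0.06, and in those numbered 87 and 88 they were -1.06, -0.77, -1.32 and -1.25. Fitted on the libraries numbered 50 to 53 alone, Lep and Retn passed (limma adjusted p = 0.0157 and 0.0409). Epididymal high fat A (number 88) was the lowest library of its group for all 4, and mesentery high fat A (also 88) was the highest of its group for Lep, Adipoq and Retn. Without epididymal high fat B, Cfd was lower in epididymal fat by -1.12 (adjusted p = 0.0196), and without A, Adipor2 passed at 0.69 (adjusted p = 0.0494; 0.56 and 0.0849 with all libraries). DESeq2 on all libraries called Adipor2 as well (0.58, adjusted p = 0.0162).

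Per kilobase of exon, the scale on which genes can be compared with each other, adipsin was the most abundant member by mean in each group and in 10 of the 12 libraries, Rarres2 being higher in epididymal high fat A and C. Its level was 54640 normalized counts per kilobase in epididymal fat on chow, against 5301 for Retn, 4738 for Adipoq, 1013 for Rarres2, 905.5 for Adipor1, 298.9 for Lep, 130.4 for Adipor2, 128 for Nampt and 28.27 for Lepr. On high fat the epididymal level of Cfd was 1259 per kilobase, followed by Rarres2 at 890, Adipoq at 858.9, Adipor1 at 826.6, Retn at 628.2 and Lep at 300.8. That order rested on library B, where Cfd stood at 2647 per kilobase against 526.7 in A and 603.4 in C. Without B the mean of Cfd was 565.1, below Rarres2 at 809.1, Adipor1 at 689.5 and Adipoq at 582. In mesentery Lep moved from the lowest member on chow, 11.24 per kilobase, to 167.6 on high fat, close to Lepr at 158.9. This closeness rested on library A. Lep stood at 290.3, 76.45 and 136.1 in A, B and C, and Lepr at 134.7, 179.5 and 162.5. Without A the means were 106.3 for Lep and 171 for Lepr. The receptor with the highest level was Adipor1 in every group, 712.3 to 905.5 per kilobase, and Adipor2 stood at 71.52 to 130.4. Exon lengths came from the GRCm38 annotation, another build than the one the reads were mapped to. Rarres2 shares 892 exonic bases with Lrrc61 on the opposite strand, and reads there cannot be told apart since the counting is not stated to use strand.

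The adipocyte markers differed between groups in some of the directions seen for Cfd, Adipoq and Retn. On chow 13 of the 18 were higher in epididymal fat and 0 lower, with a median difference of 2.875, against -0.075 over all genes. On high fat 2 were higher and 2 lower (median 0.47, all genes 0.06). Of all genes tested, 7.32% were higher and 5.47% lower in epididymal fat on chow, and 4.91% and 3.43% on high fat. With diet in epididymal fat 3 of 18 fell and 0 rose: Fasn, the fatty acid synthase (-3.14, SE 0.44, limma adjusted p = 0.00802), Thrsp, which promotes lipogenesis (-2.77, adjusted p = 0.00215), and Car3, an abundant adipocyte carbonic anhydrase (-2.74, adjusted p = 0.0408). Over all genes 0.549% passed there, in either direction. In 17 of the 18 the difference was negative, with Cidea the exception, and the median was -1.56 against 0.095 over all genes; Car3 passed in 10 of the 24 other settings, Fasn and Thrsp in 23.

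In mesentery 0 of the 18 adipocyte markers passed with diet by limma or edgeR, 4 passed in DESeq2 and 7 at an unadjusted p under 0.05. The difference was positive for 11 and negative for 7, with a median of 0.53. Fasn (-2.415, adjusted p = 0.179, called by DESeq2) and Thrsp (-0.60, adjusted p = 0.851) were lower in every high fat library, while Plin4, Cidec, Pparg, Car3 and Pck1 were higher in every one. Cidec, a lipid droplet protein, read 550, 491.9 and 780 on chow and 4121, 1274 and 1229 on high fat, with mesentery high fat A highest, as for Lep (log2 difference 1.64, adjusted p = 0.475). Plin1, which coats the lipid droplet, read 72.88, 65.41 and 135.2 on chow and 327.3, 98.4 and 86.95 on high fat, and overlapped. The summed adipocyte level of mesentery high fat A was 50654, above 29762, the highest chow sum, and Car3 alone gave 24662 of it. In epididymal fat on high fat the sums were 24728, 85804 and 40402 in A, B and C. Car3 gave 6682, 44318 and 12620 of these sums. Cfd, Adipoq and Retn were, like the sums, lowest in A and highest in B. The order was not particular to them. Lep, Adipor1, Adipor2 and Rarres2 had it too, as did the summed endothelial markers (47284, 88312 and 62739 in A, B and C). Lepr and Nampt did not. Not every marker had this order, since Cebpa was lowest in B. The part of adipocyte RNA in the members' changes was not tested.

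**Figure D3:**
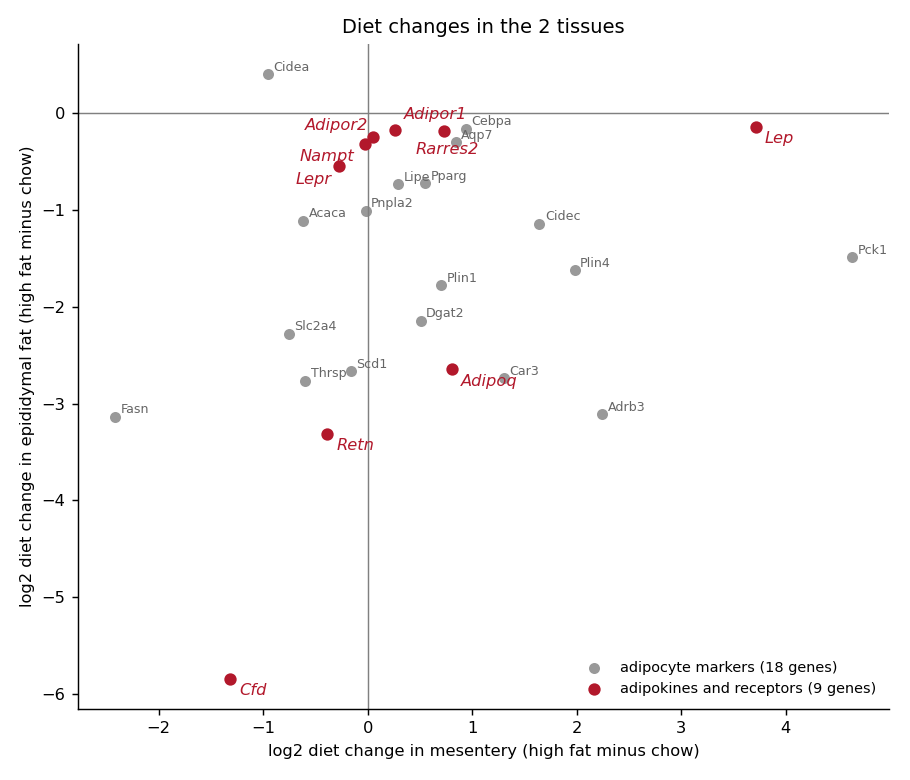
Log2 diet change in mesentery (x) against epididymal fat (y) for the 9 genes (red) and the 18 adipocyte markers (grey). On the vertical axis Adipoq (-2.65) lies among the markers, Retn (-3.31) and Cfd (-5.84) lie below all 18, and Lep lies at 3.71 in mesentery and near 0 in epididymal fat.

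Markers of other cell types were compared by diet as well. In epididymal fat 0.549% of all genes passed by limma, and the median over all genes was 0.095. With diet in epididymal fat, macrophage markers had a median of 3.13 and 1 of 12 passed by limma (Trem2, a lipid-sensing receptor, 5.25, adjusted p = 0.0176). For these 12, edgeR called 0, DESeq2 called 2, and 10 had an unadjusted p under 0.05. Of the 10 fibroblast markers 2 rose by limma and 0 fell. They were Col3a1, a fibrillar collagen (2.50, adjusted p = 0.00375), and Lum, a collagen-binding proteoglycan (2.30, adjusted p = 0.0135). For the fibroblast list edgeR called 1 (Col3a1), DESeq2 called 4, and 5 had an unadjusted p under 0.05. Endothelial markers had a median of -0.51 with 0 of 12 called by limma or edgeR, 1 in DESeq2 and 5 at an unadjusted p under 0.05. In mesentery limma and edgeR called 0 genes of each of these lists. The medians there were 1.675 for macrophage (11 of 12 positive), -0.307 for fibroblast and -0.301 for endothelial markers. DESeq2 called Csf1r and Cldn5 there, and 5, 2 and 2 genes had an unadjusted p under 0.05. The part of these cell types in the members' changes was not tested.

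The leptin pathway was followed through 16 listed genes other than Lep and Lepr. With diet 0 of 16 passed in mesentery (median 0.05) and 0 of 16 in epididymal fat (median 0.01); edgeR and DESeq2 also called 0, and unadjusted p under 0.05 gave 2 and 3. Leprot, a protein made from the leptin receptor locus that affects receptor traffic, had group means of 3557 to 3871. Jak2, the kinase bound to the receptor, had means of 269 to 398, and Stat3, the transcription factor it activates, 1703 to 1894. Socs3, the feedback inhibitor of leptin signalling, had means of 508 ± 483.5, 347 ± 93.8, 690 ± 334 and 718 ± 250 (SD, n = 3), and none of these 4 genes passed in any comparison of diet or tissue by limma. Between tissues on chow 2 of 16 were higher in epididymal fat and 1 lower, the feedback inhibitor Cish (-1.39, SE 0.29, limma adjusted p = 0.00682), which was also lower on high fat (-2.08, adjusted p = 0.000688) beside 1 gene that was higher. Of all genes tested, 7.32% were higher and 5.47% lower in epididymal fat on chow, and 4.91% and 3.43% on high fat.

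Of 16 genes of adiponectin binding and signalling, 0 passed with diet in either tissue by limma and edgeR, and DESeq2 called 1 (Gstk1) in epididymal fat. Unadjusted p under 0.05 gave 0 in mesentery and 2 in epididymal fat. The median in epididymal fat was -0.32, with 14 of 16 negative, against 0.095 over all genes. Cdh13, the endothelial T-cadherin that binds adiponectin, read 1650, 1846 and 1943 in mesentery on chow and 9547, 7504 and 7335 in epididymal fat. The tissues did not overlap and differed by 2.16 (SE 0.30, limma adjusted p = 0.000485), and on high fat by 1.30 (adjusted p = 0.0186; 0.95 and 0.0593 without epididymal high fat B; passed in 19 of 24 other settings). Its diet differences were 0.48 and -0.38 and did not pass (adjusted p = 0.901 and 1).

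Adipsin's pathway was represented by 16 genes of the alternative complement pathway. C3, the component that the pathway's convertase cleaves, read 435.4, 588.2 and 341.1 in epididymal fat on chow and 1042, 1256 and 1263 on high fat. All high fat libraries were higher, by 1.41 (SE 0.28, limma adjusted p = 0.0489), the opposite direction to Cfd; the call was close to the threshold and held in 9 of 24 other settings, not in edgeR (adjusted p = 0.127). In mesentery C3 differed by -0.15 (adjusted p = 0.972). By limma C3 was the 1 gene of 16 called with diet in epididymal fat (median 0.48), where DESeq2 called 3 (C3, C3ar1 and Clu), edgeR 0, and 5 had an unadjusted p under 0.05. Over all genes limma called 0.549% there. In mesentery limma called 0 of 16 (median 0.29; 3 at an unadjusted p under 0.05, 0 in edgeR and DESeq2).

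Factor B, the substrate of adipsin, was scarce: Cfb group means ran from 5.02 to 43.7 normalized counts and no comparison passed by limma. Its libraries on high fat in epididymal fat read 46.09, 30.56 and 54.5, and on chow 23.5, 26.06 and 11.23. Between tissues limma called 7 of 16 complement genes higher in epididymal fat on chow and 6 on high fat, with 0 lower in either. Over all genes tested 7.32% and 4.91% were higher there. Of the 16, edgeR called 6 on chow and 3 on high fat, and DESeq2 called 7 and 6. C3 was among the limma calls (1.91, adjusted p = 0.000734 on chow, and 3.48, adjusted p = 7.74e-06 on high fat).

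Resistin's listed relatives and receptors numbered 5 tested genes, of which 0 passed with diet in either tissue by limma and edgeR. DESeq2 called Tlr4 in epididymal fat, the 1 gene at an unadjusted p under 0.05. Tlr4, the lipopolysaccharide receptor to which resistin can bind, read 62.65, 123.4 and 70.47 in epididymal fat on chow and 203.5, 156.1 and 242.1 on high fat (1.26, SE 0.36, limma adjusted p = 0.201). Cap1, a proposed resistin receptor, had means of 177 to 264 and did not pass. Retnla, a resistin-like protein of macrophages activated by type 2 cytokines, was higher in epididymal fat on chow (5.20, SE 1.26, adjusted p = 0.016) and on high fat (4.91, adjusted p = 0.0299). Its libraries spread from 2016 to 43310 in epididymal fat on chow alone; without epididymal chow B the chow difference was 3.85 (adjusted p = 0.0755). Retnla calls were also lost without mesentery chow A or B on chow (adjusted p = 0.0649 and 0.0514), and without mesentery A or B or epididymal B or C on high fat (adjusted p = 0.107, 0.148, 0.0814 and 0.15).

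Among the chemerin receptors 3 were tested and 0 passed with diet in either tissue by limma, edgeR or DESeq2 (0 and 1 at an unadjusted p under 0.05). Ccrl2, a receptor that binds chemerin without signalling and presents it on endothelium, was the abundant one, with 2914, 3353 and 2416 in mesentery on chow and 753.4, 754.1 and 499.4 in epididymal fat. Mesentery was higher in every library, by -2.12 as epididymal minus mesentery (SE 0.23, limma adjusted p = 6e-05), and by -1.67 on high fat (adjusted p = 0.000569). This is the opposite direction to its ligand Rarres2. The signalling receptor Cmklr1 had means of 10.9 to 52.9 and Gpr1 (also named Cmklr2) of 148 to 235, and neither passed in any comparison by limma; DESeq2 called Cmklr1 higher in epididymal fat on high fat (limma difference 2.11, adjusted p = 0.139).

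Of 13 genes of NAD salvage and related NAD metabolism, 0 passed with diet in either tissue by limma and edgeR. DESeq2 called Nnmt in mesentery, and 3 and 1 genes had an unadjusted p under 0.05 in mesentery and epididymal fat. Nnmt, which methylates nicotinamide, read 72.88, 79.75 and 126.7 in mesentery on chow and 750.1, 216.2 and 296.4 on high fat, without overlap (2.00, limma adjusted p = 0.289).

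Of 27 other factors secreted in fat, Angptl4 rose with diet in mesentery by limma, where 0.0135% of all genes passed. This lipoprotein lipase inhibitor read 215.2, 222.2 and 122.5 on chow and 2624, 820.5 and 1650 on high fat, with no overlap (3.07, SE 0.36, limma adjusted p = 0.00931; 0.0893 without mesentery high fat C; passed in 20 of 24 other settings). In 24 of the 27 the difference in mesentery was positive (median 0.82, all genes -0.002). In epididymal fat 2 rose and 1 fell by limma, where 0.549% of all genes passed. With edgeR 0 of the 27 were called in either tissue. DESeq2 called 1 (Angptl4) in mesentery and 6 in epididymal fat, and 12 and 11 had an unadjusted p under 0.05. Spp1 (osteopontin) rose by 4.94 (SE 0.73, adjusted p = 0.00839; 0.0685 without high fat C) and Metrnl, a secreted factor of fat and muscle, by 3.38 (SE 0.57, adjusted p = 0.0171). Rbp4, the retinol carrier of plasma, read 2069, 2197 and 1407 on chow and 227.1, 803.5 and 469.3 on high fat, a fall of every library below chow (-2.07, SE 0.40, adjusted p = 0.0397; passed in 10 of 24 other settings).

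**Figure D4:**
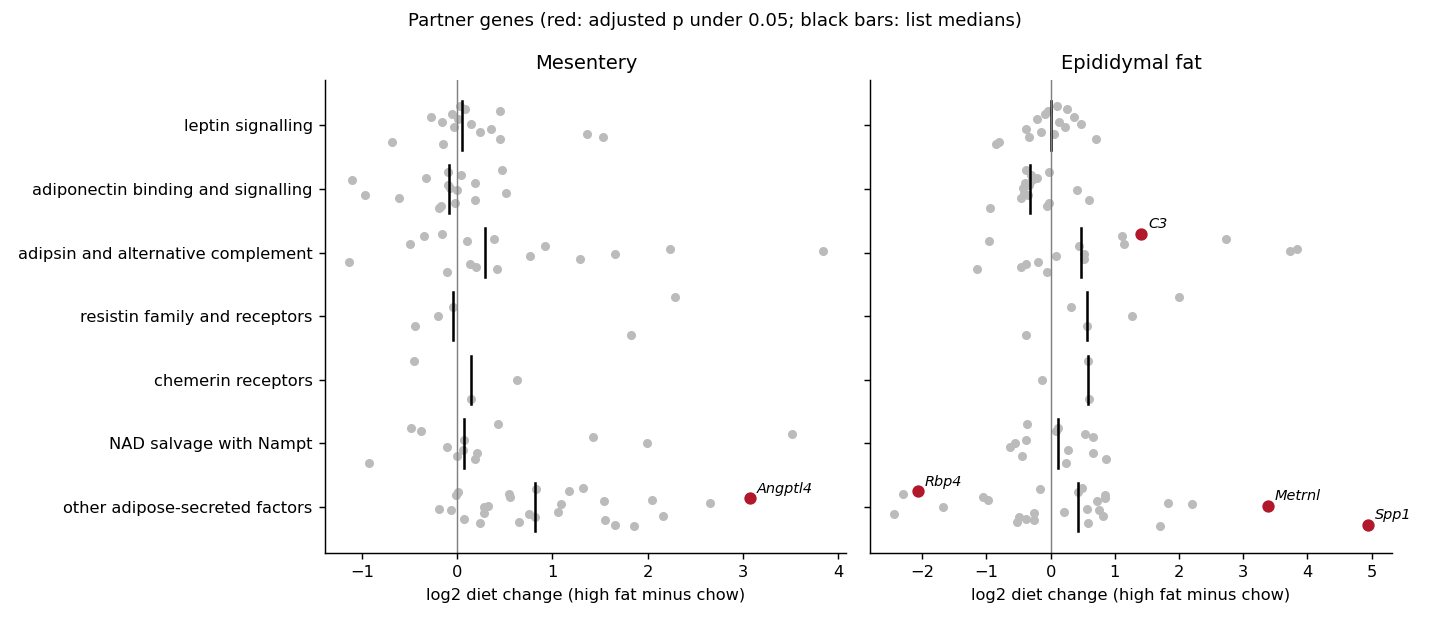
Log2 diet change of each listed partner gene in mesentery (left) and epididymal fat (right), with a black bar at each list's median and red points for genes at an adjusted p under 0.05. The red points are Angptl4 in mesentery and C3, Spp1, Metrnl and Rbp4 in epididymal fat.

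Several partner and marker calls with diet in epididymal fat were lost when 1 library was left out, also a mesentery one, since all groups share an estimate of the spread. Rbp4 was lost without mesentery chow A or B, mesentery high fat B or C, any epididymal chow library, or epididymal high fat A or C (limma adjusted p = 0.0514 to 0.213). C3 was lost without mesentery chow A or B, mesentery high fat A or C, epididymal chow A or C, or any epididymal high fat library (0.0535 to 0.309). Car3 was lost without mesentery chow A or B, any mesentery high fat or epididymal chow library, or epididymal high fat A or C (0.0516 to 0.258), and its difference was -3.495 without high fat B and -2.13 without A. Metrnl and Trem2 were lost without epididymal chow A or C or epididymal high fat A or C (0.0663 to 0.134 and 0.0689 to 0.125), and Lum without epididymal chow C or high fat A or C (0.0576 to 0.0997). On the high fat diet the tissue difference of Cdh13 was lost without mesentery B or C or epididymal B or C (0.0593 to 0.0785). Fasn, Thrsp and Col3a1 passed whichever library was left out.

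The genes whose levels most resembled each member over the 12 libraries were found by Pearson correlation of log2 values among 9824 named genes with a mean of at least 100. The libraries share tissue and diet groups, so these values describe the pattern and carry no test. Cfd was nearest to Cyp2e1 (r = 0.982), Gsta3 (0.952) and Retn (0.947), followed by Grhpr (0.919) and the small nuclear RNA Rn7sk (0.910). Adipoq was nearest to Rbp4 (0.975), Car3 (0.973), Echs1 (0.968), Chpt1 (0.965) and Cdo1 (0.964). Retn was nearest to Cdo1 (0.973), Ghr, the growth hormone receptor (0.966), Cyp2e1 (0.963), Scd1 (0.962) and Echs1 (0.959).

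Lep and Lepr had other neighbours. Lep was nearest to Rgs4 (r = 0.971), Prkar2b, a regulatory subunit of protein kinase A (0.965), Borcs8 (0.958), Chp1 (0.957) and Nnmt (0.956). Lepr was nearest to Fam174b (0.965), the homeobox gene Meis2 (0.964), Sema6d (0.964), Nipal3 (0.963) and Ccnjl (0.961). No gene appeared on the lists of both Lep and any other member, while Cdo1, Echs1 and Cyp2e1 each appeared on a pair of lists among Cfd, Adipoq and Retn.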

How the data were processed

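The authors deposited 1 table of normalized counts for 12 libraries, a signal per gene that is not whole: reads divided by a size factor. Per the submitters' processing notes, STAR 2.7.9a, featureCounts of Subread, DESeq2 1.34.0 and mouse build mm39 were used; annotation and strand setting are not given in the sources used here. The values are whole multiples of a step per library, so reads were recovered for 100% of values (within 1e-06 of a whole number). The steps matched median-of-ratios size factors computed here (largest difference 3.6e-15).

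Log2(normalized count + 1) values of 22238 genes with a mean of at least 10 were fitted with limma 3.58.1 (R 4.3.3; lmFit, eBayes with trend), 1 mean for each of 4 groups, Benjamini-Hochberg adjustment over all genes tested, and a threshold of adjusted p under 0.05. edgeR 4.0.16 (quasi-likelihood; 29 genes in epididymal fat and 1 in mesentery with diet) and DESeq2 1.42.0 on recovered reads were alternatives, with other pseudocounts, filters, scalings, designs and each library left out. The code was tested on simulated data.

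The members and lists (7 of partner genes, 10 of cell type markers; 187 of 196 listed genes in the file) were chosen with earlier results of these data known. Named besides the members were listed genes past the threshold with diet whose groups did not overlap, fixed partners (among them Cdh13, Ccrl2, C3, Cfb, Stat3, Socs3) and the 5 genes most alike to Lep, Cfd, Adipoq, Lepr and Retn; Plin1, Cidec, Nnmt, Cish and Retnla were named after their values were seen. Promoters came from RefSeq (GRCm38.p6). The other cell type lists gave no call with diet in either tissue by limma or edgeR. DESeq2 called Lyve1 in mesentery, and 0 to 3 genes a list had an unadjusted p under 0.05. These lists, with genes tested and summed normalized counts over all libraries, were neutrophil (4, 23 to 367), mesothelial (7, 187 to 824) and smooth muscle and pericyte (8, 1325 to 22484). The rest were pancreatic acinar (8, 186 to 166035), red blood cell (4, 177 to 44020) and lymphatic endothelial (5, 1299 to 35484). Between tissues on chow, pancreatic acinar genes were lower in epididymal fat (8 of 8) and red blood cell genes higher (4 of 4), as were smooth muscle (6 of 8), mesothelial (4 of 7) and lymphatic genes (3 of 5, 1 lower). Over all genes tested 7.32% were higher and 5.47% lower. No library was left out of the reported values.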

Additional observations from a re-analysis of the deposited data

Results flagged for a closer look

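For 7 listed genes, every high fat library lay above every chow library in mesentery and below every chow library in epididymal fat, and the difference between the changes did not pass in limma or edgeR; DESeq2 on the recovered reads called it for 6 of them, all but Lcn2. Each was singled out for this opposite movement, and none of the 9 adipokines and receptors showed it. How many of all genes showed it was not counted, so nothing is read from the number 7. In either direction, groups did not overlap for 9.61% of all genes in mesentery and 13.5% in epididymal fat. The log2 diet changes in mesentery and epididymal fat were 1.17 and -2.07 for Rbp4, the retinol carrier, 2.05 and -0.97 for Lcn2, a siderophore-binding lipocalin, and 1.305 and -2.74 for Car3. They were 1.98 and -1.63 for Plin4 and 1.64 and -1.14 for Cidec, both lipid droplet proteins, 0.55 and -0.73 for Pparg, the regulator of adipocyte differentiation, and 1.18 and -1.03 for Rgs5, a pericyte marker. The adjusted p of the interaction was 0.151 for Rbp4, 0.158 for Plin4, 0.165 for Car3, 0.285 for Rgs5, 0.312 for Cidec, 0.321 for Pparg and 0.885 for Lcn2.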

How the results depend on the processing

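Over 24 other settings (12 leave out a library each; 23 settings for the interaction), the number of members past the threshold with diet in mesentery (0 of 6) and between tissues on chow (7 of 9) held throughout. With diet in epididymal fat it was 1, and 0 when the spread was shrunk without a trend. Between tissues on high fat it was 2, 2 to 3 with a library left out, 3 in DESeq2 (with Adipor2) and 4 in the libraries numbered 50 to 53 (Lep and Retn beside Lepr and Rarres2). In the interaction it was 0, 1 in DESeq2 and 0 to 1 with a library left out. With a block on the letters A, B and C, the diet counts were 0 in mesentery and 1 in epididymal fat. With a block on the shared numbers, the counts were 7 and 2 between tissues and 0 in the interaction. No member's call changed in these fits. Each number belongs to a single diet, so a block on numbers cannot test a diet change within a tissue. Deviations of same-numbered libraries correlated at 0.027, 0.53 and 0.583 on chow and -0.149, 0.146 and -0.115 on high fat, not over 0.1 in every pair. Whether same-numbered libraries came from the same mice is not stated. Small differences changed sign. In the libraries numbered 50 to 53 these were Lepr with diet in mesentery (0.040), Lep with diet in epididymal fat (0.275) and, between tissues, Nampt on chow (0.135) and Cfd (0.064) and Adipor1 (0.199) on high fat. With columns rescaled to the same total these were Nampt with diet in mesentery (0.107) and on chow (0.037) and Adipoq on high fat (-0.066). On recovered reads these were Lep with diet in epididymal fat (0.045, edgeR; 0.012, DESeq2), Nampt on chow (0.042, edgeR) and Cfd on high fat (0.079, edgeR; 0.024, DESeq2). With a library left out, the ranges that crossed 0 were, with diet, Adipor2 (-0.046 to 0.128) and Nampt (-0.115 to 0.037) in mesentery and Adipor1 (-0.404 to 0.061) and Lep (-0.526 to 0.33) in epididymal fat; between tissues, Nampt on chow (-0.241 to 0.220) and, on high fat, Cfd (-1.117 to 0.046), Adipoq (-0.336 to 0.608) and Adipor1 (-0.314 to 0.150); and Lepr in the interaction (-0.734 to 0.110). The cause was not tested. Calls over all genes moved more. With diet in mesentery 3 genes became 7 (mean of at least 50), 1 (edgeR, and the 2 groups alone), 150 (DESeq2), 20 (libraries 50 to 53) and 1 to 36 (a library left out). In epididymal fat 122 became 29 (edgeR), 563 (DESeq2), 1 (no trend), 228 (2 groups alone), 30 (libraries 50 to 53) and 24 to 177. On chow 2843 became 4507 (libraries 50 to 53) and 1512 to 3305. On high fat 1854 became 1021 (edgeR), 2931 (DESeq2), 1046 (no trend) and 726 to 2535. In the interaction 1 became 3 (mean of at least 50), 130 (DESeq2), 0 (no trend), 2 (replicate block), 11 (libraries 50 to 53) and 1 to 18. Rescaling moved the median over all genes from -0.002 to 0.120 with diet in mesentery, 0.095 to -0.031 in epididymal fat, 0.060 to -0.109 between tissues on high fat and 0.109 to -0.147 in the interaction. The share of diet calls in epididymal fat that were higher moved from 76.2% to 61.5%.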
